A study of Mus musculus with 32 samples.

Results

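Snord118 and Rnu3a are the mouse genes of the U8 and U3 small nucleolar RNAs. Both belong to the box C/D class, named for 2 short sequence boxes that are bound by a shared set of core proteins. Most RNAs of this class guide methylation of ribosomal RNA, whereas U8 and U3 are needed for the cleavage of its precursor. U3 base-pairs with the precursor inside the small subunit processome, the particle in which 18S rRNA matures. U8 is needed for the maturation of 5.8S and 28S rRNA, the RNAs of the large subunit. Both RNAs reside in the nucleolus, where the ribosomal RNA genes are transcribed by RNA polymerase I.

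Both were chosen by their rise in capture in mESC ActD4 (actinomycin D) against mESC 1FA, so that the values of this contrast are given as a description, without a test. The members were the interactions assigned to ENSMUSG00000064899 (Snord118) or ENSMUSG00000106147 (Rnu3a), 2 of the 17784 transcripts listed. Together they held 42219 of the 25231081 listed interactions. Each interaction is 1 RNA tag joined to 1 DNA tag by RADICL-seq, which ligates RNA to nearby DNA in crosslinked nuclei.

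The 15 libraries fall into 6 groups, all from mouse cell lines. R08, a male embryonic stem cell line grown without feeder cells, gave mESC 1FA (fixed with 1% formaldehyde, n = 3), mESC 2FA (2% formaldehyde, n = 3), mESC ActD4 (actinomycin D at 5 µg/ml for 4 h, then 1% formaldehyde, n = 2) and mESC NPM (n = 2). Oli-neu, a line derived from oligodendrocyte progenitor cells, gave mOPC 1FA (1% formaldehyde, n = 3) and mOPC NPM (n = 2). NPM stands for non-protein-mediated, since these nuclei were fixed with 1% formaldehyde and their crosslinks were then reversed and proteins digested before the RNA was ligated. Actinomycin D is described for this study as an inhibitor of RNA polymerase II elongation. Each cell type is represented by 1 line, and replicates were batches of cells of different passage number. By the sample titles, replicate 1 of mESC NPM was sequenced again, and it is counted as 1 library here. Fewer copies of an RNA per cell and fewer cells that hold it cannot be told apart in such pooled cells.

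The genes are shown with the stretch that carried the RNA tags, because this stretch tells which part of each RNA was ligated. The mm10 coordinates are chr11:69073427-69073561 (plus strand, 135 nt, exonic over its whole length) for Snord118 and chr10:40258467-40258679 (plus strand, 213 nt, exonic over its whole length) for Rnu3a. Capitals mark the shortest stretch that held at least 90% of the centres of the RNA tags.
Snord118: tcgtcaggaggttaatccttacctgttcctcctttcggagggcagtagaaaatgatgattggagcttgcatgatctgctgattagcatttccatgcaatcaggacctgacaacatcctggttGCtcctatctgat
Rnu3a: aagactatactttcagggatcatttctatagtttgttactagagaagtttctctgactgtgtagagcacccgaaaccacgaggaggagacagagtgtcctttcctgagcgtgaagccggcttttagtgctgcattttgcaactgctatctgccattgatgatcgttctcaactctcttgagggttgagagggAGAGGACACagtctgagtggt

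Nearly all RNA tags came from the 3′ end of either RNA. In Snord118, 94.6% of 36700 tag centres lay on nucleotides 123 and 124 of 135. In Rnu3a, 93.1% of 5519 lay on nucleotides 193 to 201 of 213. Tag centres in the first 60 nucleotides numbered 528 (1.44%) for Snord118 and 0 for Rnu3a. The position was alike in all groups, with 90.9% to 96.3% of Snord118 tags on this stretch in the 5 groups that list it. For Rnu3a the share was 82.6% in mOPC NPM, where only 86 interactions were listed, and 90.8% to 93.5% in the other groups. The adapter is ligated to free 3′ ends of RNA, and these tags lie at the annotated end of the mature RNAs.

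**Figure D1:**
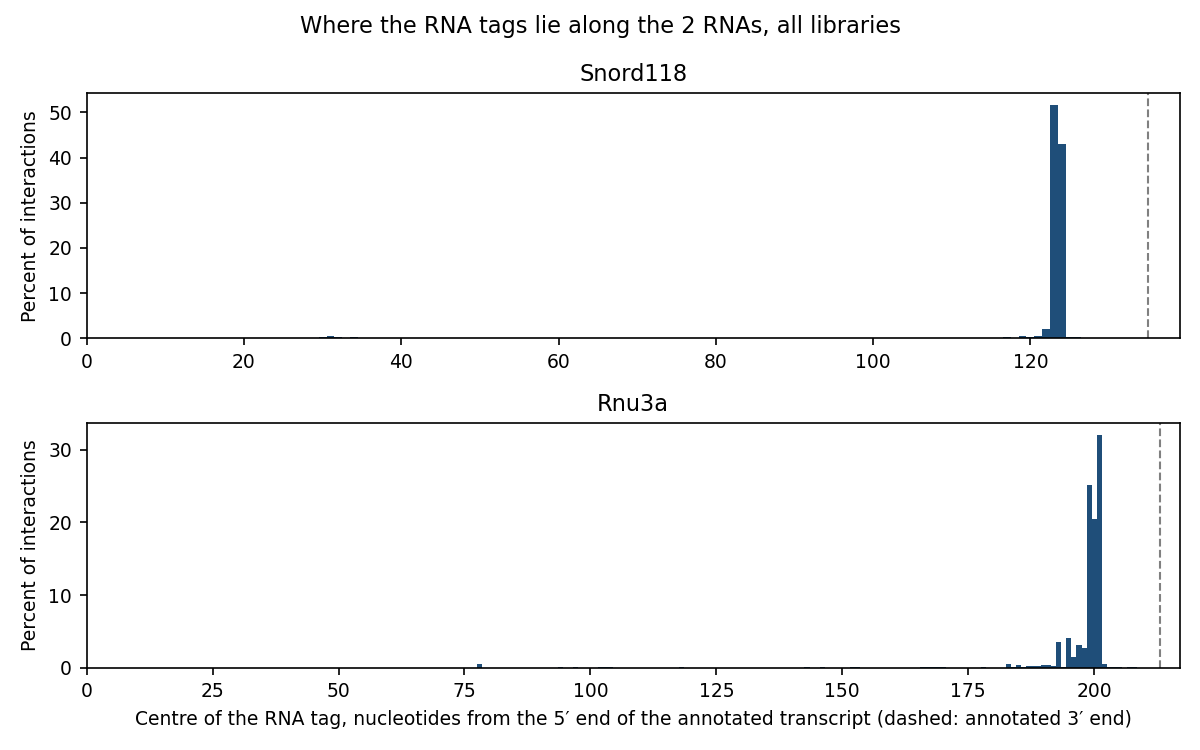
Position of RNA tag centres along Snord118 and Rnu3a (horizontal axis, nucleotides from the 5′ end; vertical axis, percent of the RNA's interactions), over all libraries that list them. The dashed line marks the annotated 3′ end, and 94.6% of Snord118 and 93.1% of Rnu3a tag centres stand in 1 narrow peak just before it.

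The boxes that give the class its name were searched as letters on the RNA strand. TGATGA, a form of box C, was found once in each RNA, at nucleotides 53 to 58 of Snord118 and 156 to 161 of Rnu3a. CTGA, box D, was found at nucleotides 78 to 81, 106 to 109 and 131 to 134 of Snord118 and at 53 to 56, 104 to 107 and 205 to 208 of Rnu3a. Of 1507 annotated snoRNA genes 26.1% held TGATGA, 79.5% held CTGA and 25.2% held both. Matches of such short words are a description and no evidence of use. The last CTGA of each RNA lay beyond the stretch in capitals.

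Related copies could share reads, so the end of Rnu3a was compared with that of the U3 genes Rnu3b1 to Rnu3b4 on chromosome 11. These were 215 nt long, with 31 edits to Rnu3a (85.6% identity), 8 of them in the last 40 nt. The last 40 nt of both kinds are printed here, since they hold the tags.
Rnu3a: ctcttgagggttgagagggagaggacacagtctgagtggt
Rnu3b1 to Rnu3b4: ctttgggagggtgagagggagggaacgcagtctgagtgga
The last 26 nt of Rnu3a had 1 exact match in the mm10 chromosomes and those of Snord118 also had 1, each at its own gene. The last 26 nt of the Rnu3b genes had 6 exact matches, and such tags do not map uniquely. Of the Rnu3b genes, Rnu3b3 was listed with 46 interactions in mESC 1FA, and the other 3 were listed at 0 there. The U3 values here are therefore those of Rnu3a and not of all U3 RNA. A second identifier, ENSMUSG00000065870, spans the same locus and was listed at 0, as all tags of the locus carried ENSMUSG00000106147.

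The number of listed interactions per library was 2441619 to 2832717 in mESC 1FA, 2035499 to 2515347 in mESC 2FA, 251802 to 418781 in mESC ActD4 and 434610 to 608994 in mESC NPM. It was 1998951 to 2210765 in mOPC 1FA and 1190366 to 1272653 in mOPC NPM. Only pairs of a transcript and a 25-kb DNA bin that passed the authors' threshold are listed, so these totals are not sequencing depth and a listed 0 is not an absence. Between 0.199% and 8.19% of the pairs of a library have 1 interaction there, which a binomial test within that library could not pass. The significance of a pair was therefore taken as called on pooled replicates, so that libraries of a group share 1 list of pairs and their spread is understated. The marker genes fitted the labels. In CPM (counts scaled to 1000000 listed interactions of the library), the 10 mESC markers summed to 2355 to 2896 in mESC 1FA and 0.452 to 1.50 in mOPC 1FA. The 10 mOPC markers summed to 13815 to 15088 CPM in mOPC 1FA and 28.9 to 59.0 in mESC 1FA. Fibroblast markers reached at most 34.5 CPM in any group.

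By group mean, the capture of Snord118 was lower in NPM than in 1FA of the same cell type, and it was highest after actinomycin D. In mESC 1FA, Snord118 had 2626, 5738 and 3191 interactions, which is 984, 2350 and 1126 CPM. In mESC 2FA it had 1104, 3836 and 3439 (492, 1885 and 1367 CPM). The libraries of both groups overlapped, and 1 library of each lay apart from the other 2. In mESC ActD4 it had 8745 and 5882 (20882 and 23360 CPM), above every other library. In mESC NPM the counts were 296 and 46 (681 and 75.5 CPM), so that both libraries lay far apart. In mOPC 1FA they were 577, 486 and 734 (261, 231 and 367 CPM), below every mESC 1FA library. Both mOPC NPM libraries listed Snord118 at 0.

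Rnu3a differed from Snord118 in NPM. Rnu3a had 695, 533 and 421 interactions in mESC 1FA (260, 218 and 149 CPM). The counts of 408, 525 and 597 in mESC 2FA (182, 258 and 237 CPM) overlapped with these. In mESC ActD4 it had 728 and 494 (1738 and 1962 CPM), above every other library. In mESC NPM it had 600 and 161 (1381 and 264 CPM), both above the 1FA libraries. In mOPC it had 76, 73 and 122 interactions in 1FA (34.4, 34.6 and 61.0 CPM) and 41 and 45 in NPM (32.2 and 37.8 CPM), and these overlapped.

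**Figure D2:**
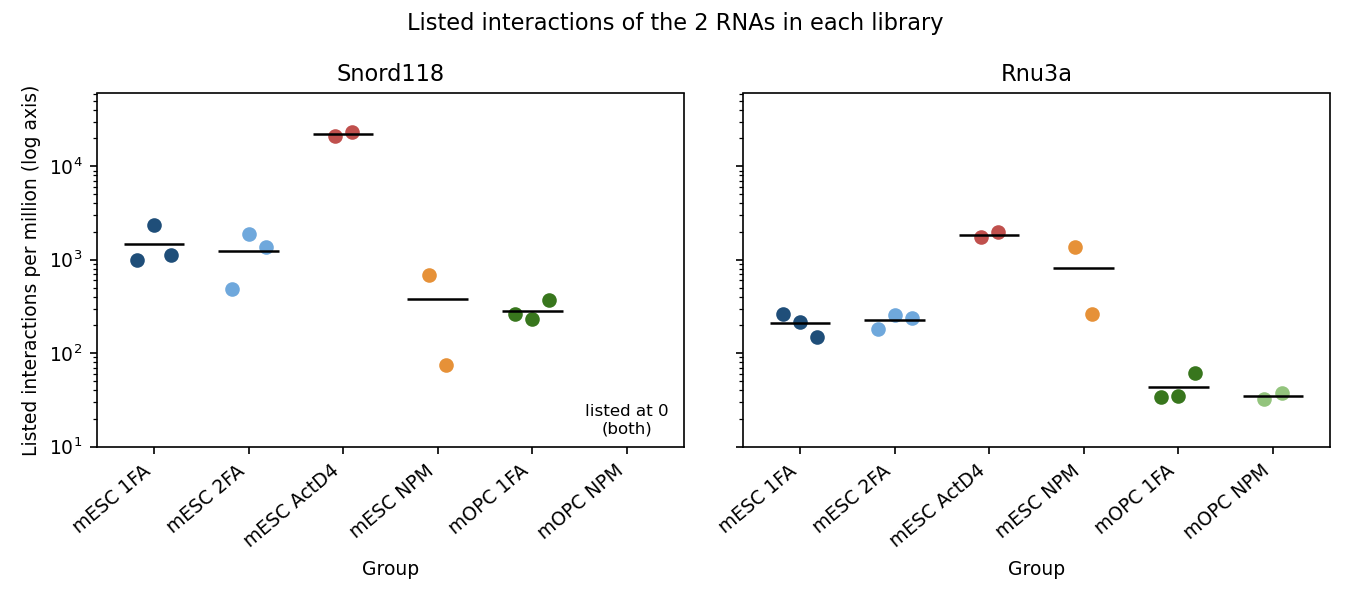
Capture of Snord118 and Rnu3a in CPM (vertical log axis) in each library, by group. Points are libraries and the horizontal lines are group means, and both RNAs stand highest in the 2 mESC ActD4 libraries.

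The balance between both RNAs stood apart in mESC NPM, and the mESC 1FA libraries differed widely among themselves. For every 100 Snord118 interactions there were 26.5, 9.29 and 13.2 Rnu3a interactions in mESC 1FA, whereas mESC 2FA had 36.96, 13.7 and 17.4. The ratio was 8.32 and 8.40 in mESC ActD4, and 13.2, 15.0 and 16.6 in mOPC 1FA. In mESC NPM it was 203 and 350, so that Rnu3a outnumbered Snord118 in those 2 libraries alone among the 13 libraries that list both. The ratio is not corrected for the length of the RNAs and is read only between libraries.

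Both RNAs met chromatin mainly in trans, on chromosomes other than that of their gene. In mESC 1FA the trans share was 92.2% ± 0.197 (SD, n = 3) for Snord118 and 96.6% ± 0.201 for Rnu3a. Over all transcripts it was 5.44% to 6.73% in these libraries. By number of trans interactions Snord118 had rank 3 of all transcripts in each of the 6 mESC 1FA and 2FA libraries, and Rnu3a had rank 5 or 6. Ranks are not corrected for length. By all interactions Snord118 ranked 20 to 92 and Rnu3a 806 to 1546 in mESC 1FA.

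The principal target was the 25-kb bin of chromosome 17 that holds an annotated ribosomal RNA gene, CT010467.1 (chr17:39846353-39848827, minus strand), and the long noncoding RNA gene Gm26917 (chr17:39843013-39846341, plus strand). The mouse ribosomal RNA gene arrays are largely missing from the assembly, so tags from the arrays and from this bin cannot be told apart. In mESC 1FA the bin took 44.0%, 30.01% and 33.3% of Snord118 interactions (35.8% ± 7.32) and 74.9% ± 2.31 of those of Rnu3a. Over all transcripts it took 0.284% to 0.539%. Of the 31756 interactions in this bin in mESC 1FA, 3941 (12.4%) were those of Snord118, the most of any of 1090 transcripts. Snord13, which serves 18S rRNA acetylation, followed with 1460, Rnu3a with 1237 and Rmrp, the RNA of RNase MRP, with 1102. Snord118 was also first in mESC 2FA (3153 of 23467) and in mESC ActD4 (956 of 5392), where Rnu3a was second with 456. In mESC NPM, Malat1, a nuclear long noncoding RNA, was first with 850 of 39319, while Rnu3a had rank 6 with 260 (0.661%) and Snord118 rank 12 with 145 (0.369%). In mOPC 1FA, Rmrp was first with 1024 of 12146, Snord118 had 1010 and Rnu3a 219. The ranking leaves out ribosomal RNA itself, whose tags the authors had removed.

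**Figure D3:**
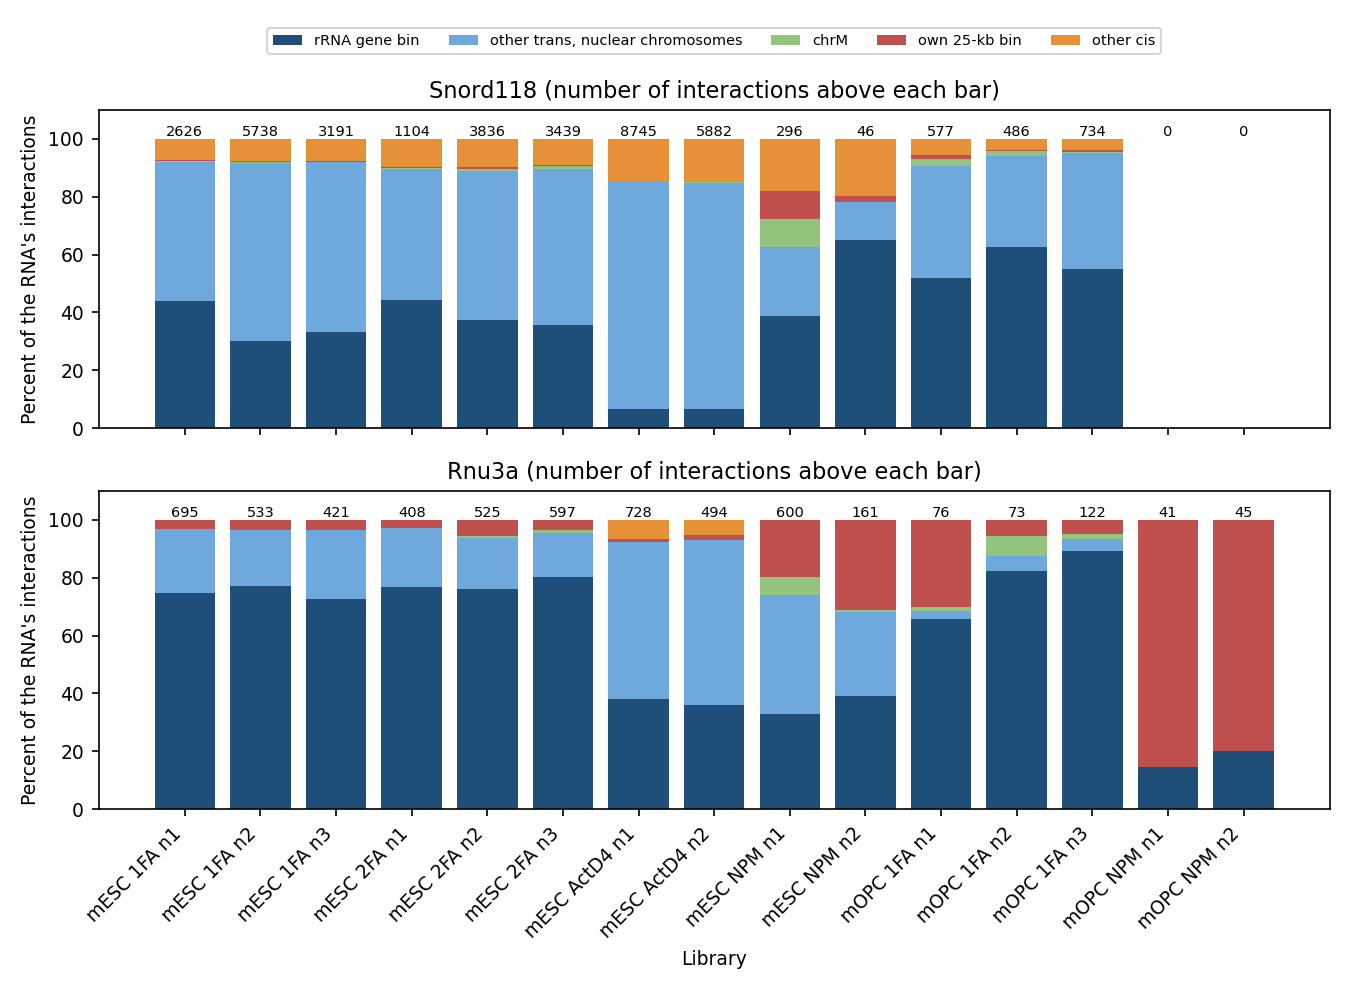
Percent of each RNA's interactions (vertical axis, stacked bars adding to 100 where the RNA was listed) by DNA target in each library, with the number of interactions above each bar. Pooled over libraries, the ribosomal RNA gene bin took 34.1% of Snord118 and 75.02% of Rnu3a interactions in mESC 1FA, against 6.54% and 37.3% in mESC ActD4.

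Within this bin the tags of both RNAs lay where those of other RNAs lay. In mESC 1FA, 72.0% of the Snord118 tags, 75.5% of the Rnu3a tags and 70.7% of all other tags of the bin lay over Gm26917. At 5000 or more bases from the start of Gm26917, called the far end here, were 21.5% of Snord118, 18.6% of Rnu3a and 22.1% of other tags. Of the 848 such Snord118 tags, 218 lay from 5000 to 5250 bases and the others further on. The far end held more of the tags in mESC NPM, with 42.1% of 145 Snord118, 39.2% of 260 Rnu3a and 40.1% of 38914 other tags. For Snord118 the share was 44.3% in NPM replicate 1 and 33.3% in replicate 2, and for other RNAs 47.6% and 37.1%. In mOPC NPM it was 23.5% for other RNAs. The shift in mESC NPM was thus shared by the RNAs of the bin and not particular to either member.

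The 100 bases of the bin that held most tags in mESC NPM are shown as the place where this shift was sharpest. They lie at chr17:39848101-39848200 (mm10, plus strand), and an 18S pseudogene of RefSeq, Rn18s-rs5, ends just past them.
window: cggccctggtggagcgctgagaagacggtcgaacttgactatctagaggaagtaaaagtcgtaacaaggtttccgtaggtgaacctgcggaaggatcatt
In mESC NPM these 100 bases held 25 of 145 Snord118 tags (17.2%), 40 of 260 Rnu3a tags (15.4%) and 14.1% of other tags.

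**Figure D4:**
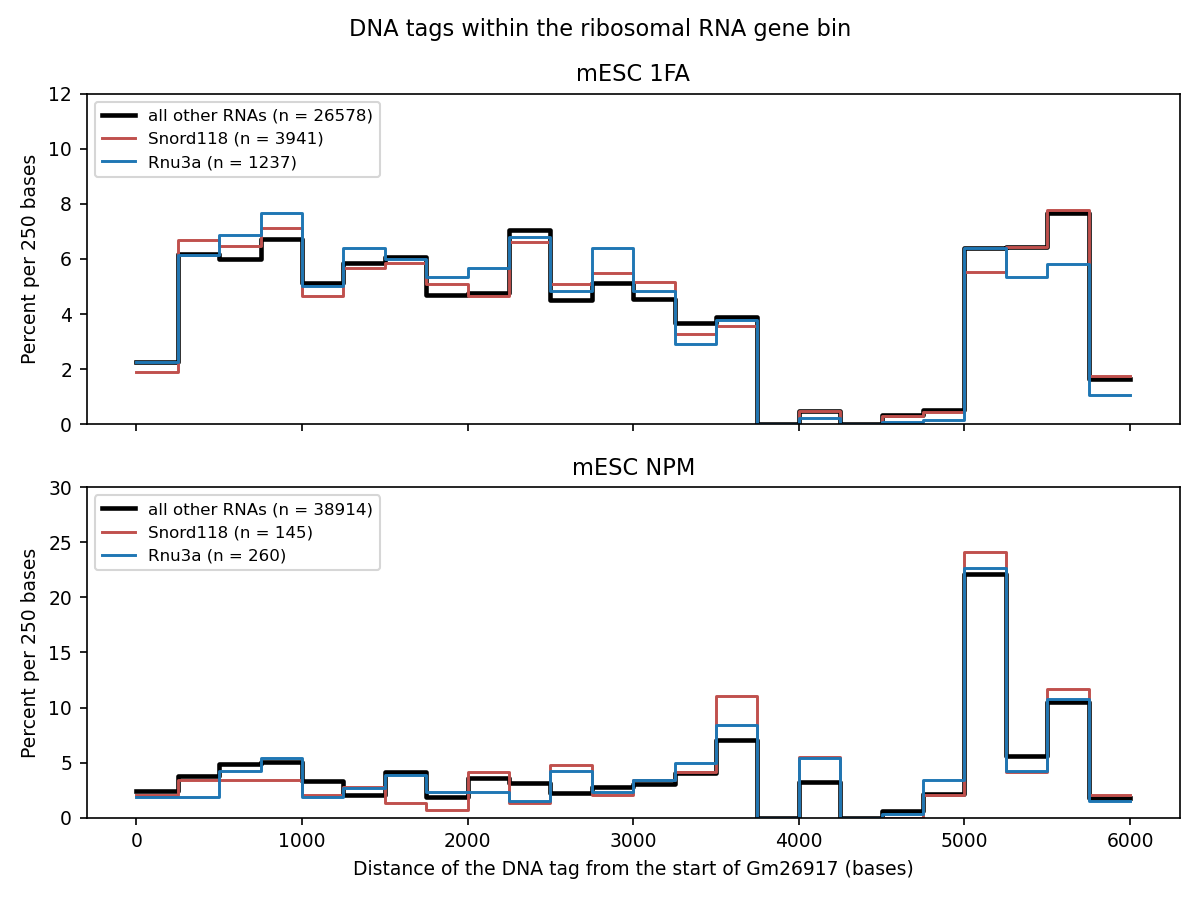
DNA tags in the ribosomal RNA gene bin by distance from the start of Gm26917 (horizontal axis, bases; vertical axis, percent of the RNA's tags in the bin per 250 bases; the panels have different vertical scales), for Snord118, Rnu3a and all other RNAs. In mESC NPM all 3 have more of their tags at 5000 bases or beyond (42.1%, 39.2% and 40.1%) than in mESC 1FA (21.5%, 18.6% and 22.1%).

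Outside this bin and the RNA's own, Snord118 had 7584 interactions in 441 bins and Rnu3a 357 in 21, pooled over mESC 1FA libraries. The number of bins was not corrected for the number of interactions. In all, Snord118 had 443 bins in mESC 1FA and Rnu3a 23, of which 22 were also Snord118 bins (95.7% of the Rnu3a bins, 4.97% of the Snord118 bins). Of the Snord118 bins 89.4% were listed in every library of the group. The next targets after the ribosomal RNA gene bin recurred for both. The bin chr11:109000001-109025000 had 194 Snord118 and 51 Rnu3a interactions in mESC 1FA. Of these, 99.5% and 98.0% lay within 1000 bases, with no annotated gene over the tags. In chr5:146250001-146275000, which overlaps the kinase gene Cdk8, 93.9% of 115 Snord118 interactions also lay within 1000 bases. Over Sfi1, a centrosomal protein gene of chromosome 11, the 118 and 125 interactions of 2 adjacent bins were spread, with at most 10.2% and 9.60% within 1000 bases. The bins of both RNAs were ones that many transcripts met. Apart from the ribosomal RNA gene bin and the RNA's own bin, the median number of transcripts listed per bin was 8 for Snord118 and 11 for Rnu3a, against 3 over all 66003 bins. Of 21 such Rnu3a bins 20 were also listed for Snord13.

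In mESC 1FA, DNA tags of Rnu3a on other chromosomes fell less often over genes than those of other transcripts. Outside the ribosomal RNA gene bin and the mitochondrial genome, 52.3%, 63.2% and 59.1% of Snord118 tags and 38.3%, 38.2% and 45.5% of Rnu3a tags lay over an annotated gene in the mESC 1FA libraries. For all other transcripts it was 72.1% to 72.6%, but nearly all of their trans interactions were those of Malat1 and Gm22973. Without these 2 RNAs it was 56.7% to 57.9%, which the Snord118 libraries overlapped and those of Rnu3a did not. These differences were described and not tested.

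Interactions in cis took different forms. Of 906 cis interactions of Snord118 in mESC 1FA, 862 lay over 1 Mb from the RNA tag, in 29 bins of chromosome 11, and 22 lay in its own gene. The bin at 109000001 (194 interactions) and the bins of Sfi1 (118 and 125) are among these 29. Rnu3a met them too, but they count as trans for it, since its gene lies on chromosome 10. In mOPC 1FA they were the only Snord118 cis bins over 1 Mb away, with 43, 17 and 20 interactions. For Rnu3a 51 of 55 cis interactions in mESC 1FA lay in its own gene. The DNA tags in the Rnu3a gene were centred on nucleotide 128 (median) in every group, well before the RNA tags. In Snord118, 20 of the 22 DNA tags in its own gene lay within 13 nt of the RNA tag in mESC 1FA.

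Actinomycin D for 4 h, the contrast on which both RNAs were chosen, changed where they were captured as well as how often. The log2 fold change of TMM-scaled CPM, used for all fits here, was 3.81 for Snord118 and 2.99 for Rnu3a, in a contrast in which 62.1% of 10235 transcripts were called at a limma adjusted p under 0.05. Snord118 had rank 2 of all transcripts in both ActD4 libraries and made up 21.2% and 22.2% of all trans interactions. The rise in CPM was smaller in the ribosomal RNA gene bin than outside it. In that bin Snord118 went from 505 ± 176 CPM in mESC 1FA to 1449 ± 135 in mESC ActD4, which is 2.87 times as much. Outside both this bin and its own, it went from 978 ± 581 to 20658 ± 1625 CPM (21.1 times). Rnu3a went from 157 ± 44.4 to 685 ± 30.5 CPM in the bin (4.36 times) and from 45.1 ± 11.4 to 1134 ± 115 elsewhere (25.2 times). The share of the bin accordingly went from 35.8% ± 7.32 to 6.55% ± 0.0917 for Snord118 and from 74.9% ± 2.31 to 37.1% ± 1.52 for Rnu3a. No ActD4 library overlapped a 1FA library in any of these values. Over all transcripts the bin took 0.763% to 0.873% in mESC ActD4, against 0.284% to 0.539% in mESC 1FA. Pooled over libraries, its share fell for Snord13 (72.1% to 45.8%), Rmrp (43.0% to 23.6%) and Snord22 (82.9% to 68.4%). It rose for Snord14e (72.0% to 93.1%) and Snord17 (88.8% to 100%). Since all of these measures come from the contrast that chose the members, none was tested. CPM is relative to the listed interactions of a library, which were fewest in mESC ActD4.

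**Figure D5:**
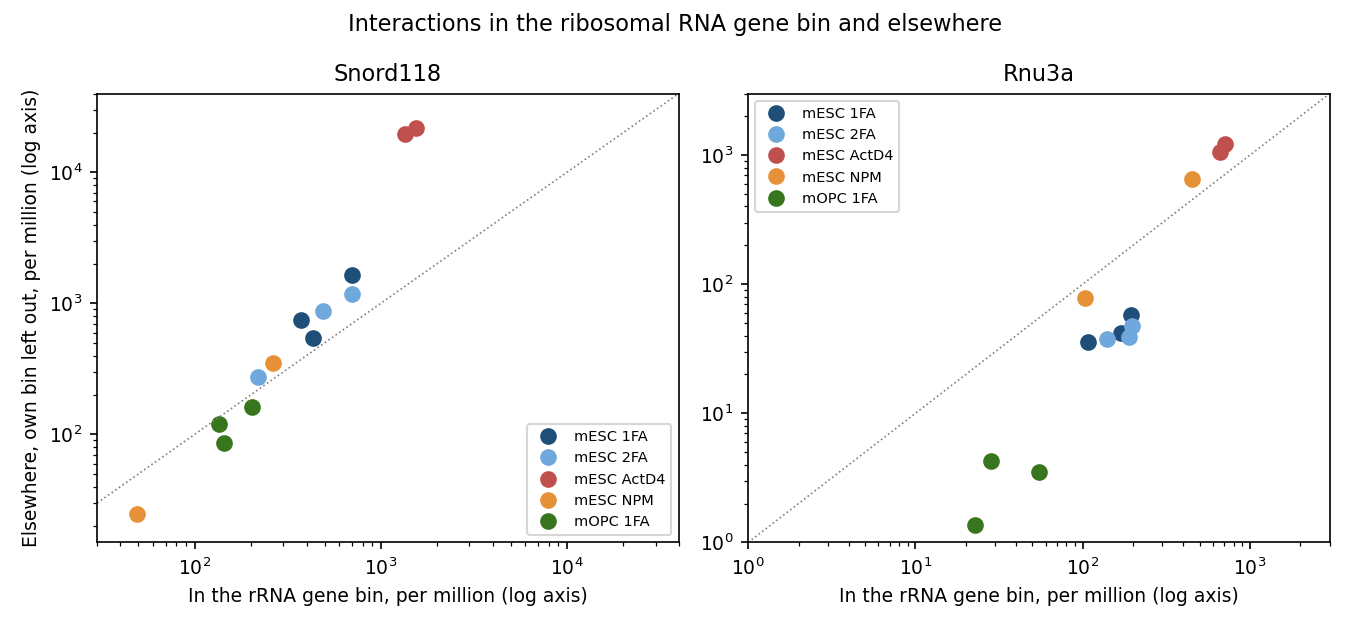
Capture in CPM in the ribosomal RNA gene bin (horizontal log axis) and outside it and the RNA's own bin (vertical log axis), 1 point per library, for Snord118 and Rnu3a. The dotted line marks equal values, libraries with a 0 on either axis (both mOPC NPM libraries) are left out, and the 2 mESC ActD4 libraries of each RNA lie above the line while those of Rnu3a in mESC 1FA lie below it.

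Most bins of either RNA in mESC ActD4 were not listed for it in mESC 1FA. Snord118 had 985 bins in mESC ActD4, of which 38 were among its 443 bins in mESC 1FA (8.58% of the 1FA bins, 3.86% of the ActD4 bins). For comparison, 76 bins were shared by mESC 1FA and mESC 2FA (17.2% and 24.1%). Of the 23 Rnu3a bins in mESC 1FA, 6 were listed in mESC ActD4 (26.1%) and 14 in mESC 2FA (60.9%). Over all transcripts 66003 bins were listed in mESC 1FA and 25004 in mESC ActD4. Their overlap was not computed, so the change of bins is not read as particular to these RNAs. Rnu3a had 71 bins in mESC ActD4, 68 of them also Snord118 bins. The bins gathered in a few stretches. The window of chromosome 8 from 120 to 125 Mb held 2015 of 13661 Snord118 interactions outside the ribosomal RNA gene bin and its own bin (14.8%, in 115 bins) and 294 of 747 of Rnu3a (39.4%, in 27 bins). It held 3.61% of the trans interactions of other transcripts, or 8.75% without Malat1 and Gm22973, the other RNAs with the most trans interactions. The window from 115 to 120 Mb of chromosome 11, which carries Snord118 but not Rnu3a, held 11.1% and 10.8%, against 4.28% for other transcripts without Malat1 and Gm22973. The share of trans tags over annotated genes was 83.6% and 82.3% for Snord118 and 92.1% and 92.5% for Rnu3a in the ActD4 libraries, against 83.6% and 85.6% for other transcripts without Malat1 and Gm22973.

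In cis both RNAs were listed in more bins of their chromosome in mESC ActD4 than in mESC 1FA. Snord118 had 2172 of 2182 cis interactions (99.5%) over 1 Mb away, in 144 bins, and 1950 of these lay past the end of its gene. In mESC 1FA most were already that far, 862 of 906 (95.1%), in 29 bins, with 263 past the end of the gene. Rnu3a had 72 of 91 cis interactions over 1 Mb away in mESC ActD4 and 0 in each other group. Its own gene held 16. All 72 lay from 80 to 85 Mb of chromosome 10, a window where Snord118 had 824 interactions in trans. Of the 2172 Snord118 interactions, 1516 lay from 115 to 120 Mb of chromosome 11, where Rnu3a had 81 in trans.

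In NPM, where crosslinks were reversed and proteins digested before ligation, Snord118 was listed less and Rnu3a was not called different in mESC. Every comparison with mESC 1FA, those with mOPC 1FA included, shares the mESC 1FA libraries with the contrast that chose the members. Snord118 fell from 1487 ± 751 CPM in mESC 1FA (n = 3) to 378 ± 428 in mESC NPM (n = 2), with all libraries apart. The log2 fold change was −3.27 (SE 0.68, limma adjusted p = 0.00295), where 53.2% of 11410 transcripts were called and 28.4% were called lower. The value ran from −4.78 without mESC NPM replicate 1 to −1.72 without replicate 2 and stayed called. Over all transcripts, interactions of an RNA with the 25-kb bin of its own gene made up 91.9% and 92.6% of the mESC NPM libraries and 14.6% to 17.1% of the mESC 1FA libraries. Without these interactions the log2 fold change of Snord118 was 0.40 (adjusted p = 0.77), so the direction turned. Rnu3a had a log2 fold change of 0.90 (SE 0.51, limma adjusted p = 0.159), with 209 ± 56.5 CPM in mESC 1FA and 822 ± 789 in mESC NPM. It was called higher without replicate 2 of mESC NPM (2.06, adjusted p = 0.00242) and was −0.22 without replicate 1 (adjusted p = 0.532), so that 1 library decided the sign. It was also called higher when the ribosomal RNA gene bin (2.25, adjusted p = 0.00459) or every transcript's own bin (4.28, adjusted p = 0.0175) was left out.

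Identical lines of the files were merged, and of the 2 members this touched Rnu3a most. Over all transcripts 26799 copies were dropped in mESC NPM replicate 1, which by its titles was sequenced again, and 6950 in replicate 2. The mOPC NPM libraries, without such a title, lost 18824 and 30527. Whether the added sequencing bears on the gap between the mESC NPM replicates was not tested. Counting the copies would have added 104% and 82.0% to Rnu3a in the mESC NPM libraries and 215% and 233% in mOPC NPM. For Snord118 they would have added 41.6% in mESC NPM replicate 1. With copies kept in all transcripts, a setting added after the data were seen, Rnu3a was called higher in mESC NPM (1.75, adjusted p = 0.0224) and Snord118 was called lower (−3.16, adjusted p = 0.00832).

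The ribosomal RNA gene bin held a smaller share of Rnu3a interactions in NPM and the Rnu3a gene a larger one, in both cell types. In mESC, 19.5% and 31.1% of the NPM interactions lay in the Rnu3a gene, against 3.07% on average in 1FA. In mOPC the share was 82.9% and 75.6% in NPM and 28.9%, 5.48% and 4.10% in 1FA. In the ribosomal RNA gene bin the share was 36.0% ± 4.45 in mESC NPM and 17.3% on average in mOPC NPM, against 74.9% ± 2.31 and 79.1% ± 12.1 in 1FA. Over all transcripts the share of this bin went the other way, with 2.62% to 4.59% in mESC NPM against 0.284% to 0.539% in mESC 1FA, and 0.235% to 0.440% in mOPC NPM against 0.143% to 0.252% in mOPC 1FA. Over both cell types the difference was −50.3 percentage points (exact two-sided permutation within cell type, p = 0.01, the smallest the design allows, adjusted p = 0.04 over 8 tests of shares). It was −38.9 points in mESC and −61.8 points in mOPC, and every NPM library lay below every 1FA library of its cell type. The trans share of Rnu3a differed by −45.6 points (exact permutation p = 0.01, adjusted p = 0.04), by −12.8 points with each pair of transcript and bin counted once and by −60.9 with copies kept. It was 80.3% and 68.9% in mESC NPM and 14.6% and 20% in mOPC NPM. Of trans interactions alone, the bin share differed by −10.2 points (exact permutation p = 0.23). Over all transcripts the trans share was also lower in NPM, with 3.61% to 4.87% in mESC NPM against 5.44% to 6.73% in mESC 1FA. In mOPC it was 3.93% to 6.27% in NPM against 11.3% to 13.3% in 1FA.

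The levels of Rnu3a by target are described for each cell type, and neither they nor their difference between the cell types were tested. In mESC, Rnu3a in its own 25-kb bin went from 6.99 ± 1.79 CPM in 1FA to 177 ± 134 in NPM, while in the ribosomal RNA gene bin it was 157 ± 44.4 and 278 ± 247, which overlapped. Outside both bins it went from 45.1 ± 11.4 to 367 ± 408 CPM (8.15 times), where the NPM libraries had 78.8 and 656 and the 1FA libraries 35.7 to 57.7. In the ribosomal RNA gene bin NPM replicates 1 and 2 had 453 and 103 CPM and the 1FA libraries 108 to 195, so that 1 library decided the direction. The smaller share of this bin in mESC NPM stood beside higher levels at the other targets in both NPM libraries. In mOPC its own bin went from 5.10 ± 4.63 to 28.9 ± 1.94 CPM and the ribosomal RNA gene bin from 35.2 ± 16.99 to 6.14 ± 2.01. Outside both it went from 3.04 ± 1.51 CPM to a listed 0. None of these targets overlapped between the mOPC groups. Own bins of all transcripts together held at most 17.9% of a mOPC 1FA library and at least 90.7% of a mOPC NPM library. The higher level of Rnu3a in its own bin thus went with a larger share of own bins among RNAs in general. The listed 0 outside both bins depends on the authors' threshold, with 41 and 45 Rnu3a interactions in the mOPC NPM libraries. The DNA tags in the Rnu3a gene took 49 positions for 167 interactions in mESC NPM and 13 for 51 in mESC 1FA.

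Snord118 kept the ribosomal RNA gene bin as its main target in mESC NPM, with 38.9% and 65.2% of its interactions there. Its level in the bin was 265 and 49.3 CPM, against 505 ± 176 in mESC 1FA, and outside this bin and its own it was 350 and 24.6 CPM, against 978 ± 581. The share differed from mESC 1FA by 16.3 points (exact permutation p = 0.3), and the libraries overlapped. It differed by 29.4 points without NPM replicate 1, by 3.07 without replicate 2 and by 29.7 over trans interactions alone (exact permutation p = 0.1). Its trans share was 72.3% and 78.3%, a difference from mESC 1FA of −16.9 points (exact permutation p = 0.1, the smallest for 3 libraries against 2). Snord118 had no value in mOPC NPM, so these tests rest on mESC alone. The number of bins was 12, of which 10 were also bins of mESC 1FA. Besides the ribosomal RNA gene bin they held its own gene (27 interactions), the bin of chromosome 11 at 109000001 (29), the mitochondrial genome (29, all in replicate 1), the bins of Sfi1 (19 and 14) and the bin of the 5.8S rRNA gene n-R5-8s1 (22). The bins at 109000001 and of Sfi1 lie on the chromosome of Snord118 and lower its trans share, whereas they count as trans for Rnu3a. They were its only 3 cis bins over 1 Mb away, with 62 of its 92 cis interactions. Rnu3a had 11 of these 12 bins among its 21, and 18 interactions in the bin of Malat1. The bin of Rmrp on chromosome 4 held 14 Snord118 interactions. In NPM the median number of transcripts per bin was 26 for Snord118 and 12 for Rnu3a, against 1 over all bins.

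In mOPC, Snord118 was listed at 0 in both NPM libraries and at 231 to 367 CPM in 1FA. No fold change or p is given against these zeros, since pairs appear to be called on pooled replicates and both zeros are then 1 decision of the authors' threshold. Rnu3a was lower in mOPC NPM by log2 fold change −1.04 (SE 0.27, limma adjusted p = 0.0177), although its unscaled values overlapped. Here 56.1% of 11586 transcripts were called and 23.8% were called lower. Scaled by the total of listed interactions it was −0.26 (adjusted p = 0.444). It turned to 1.06 (adjusted p = 0.0466) without the ribosomal RNA gene bin and to 1.15 (adjusted p = 0.107) without each transcript's own bin. Leaving out mOPC NPM replicate 1 or 2 ended the call (adjusted p = 0.164 and 0.096). With identical lines kept as copies the value was 0.47 (adjusted p = 0.113), so the sign depends on how copies are counted. The NPM effect on Rnu3a was not called different between mESC and mOPC (2.08 on the log2 scale, SE 0.78, limma adjusted p = 0.0657). This interaction fit was added after the data were seen, and 35.8% of 13593 transcripts were called in it. With copies kept the value was 1.43 (adjusted p = 0.2), and without own bins 2.80 (adjusted p = 0.0865). For Snord118 the difference between the cell types rests on the listed zeros and is not given.

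Between the cell types both RNAs were captured less in mOPC. In 1FA the log2 fold change of mOPC against mESC was −1.79 for Snord118 (SE 0.31, limma adjusted p = 0.000932) and −1.78 for Rnu3a (SE 0.26, adjusted p = 0.000377). Of 10007 transcripts 77.9% were called and 42.9% were called lower. Every mOPC 1FA library lay below every mESC 1FA library for both RNAs. In NPM, Rnu3a was lower in mOPC by log2 fold change −3.68 (SE 0.77, limma adjusted p = 0.014). Snord118 was listed at 0 in mOPC NPM, and no test against these zeros is given. In this contrast 50.3% of 10980 transcripts were called and 22.9% were called lower. With 1 mOPC NPM library left out, Rnu3a was not called (adjusted p = 0.164 and 0.148), while its log2 fold change was −3.51 and −3.81.

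Fewer bins were listed in mOPC 1FA, where Snord118 had 1797 interactions, against 11555 in mESC 1FA. The number of bins was not corrected for this, and the overlap of bins over all transcripts was not computed. Snord118 had 75 bins, of which 19 were bins of mESC 1FA (25.3% of the mOPC bins, 4.29% of the mESC bins), among them the bins of chromosome 11 at 109000001, of Sfi1 and of Cdk8. The ribosomal RNA gene bin took 56.6% ± 5.53 of its interactions. Of the 694 trans interactions outside this bin 481 (69.3%) lay on chromosome 5, against 238 of 6708 (3.55%) in mESC 1FA. Of the other transcripts without Malat1 and Gm22973, 37.6% and 3.60% of such interactions lay there. The windows from 20 to 25 Mb and from 30 to 35 Mb of that chromosome held 164 and 207 of 774 interactions outside the ribosomal RNA gene bin and its own bin. Other transcripts of mOPC 1FA also met these windows, with 11.2% and 14.8% of their trans interactions without Malat1 and Gm22973. The trans share of Snord118 was 94.8% ± 1.66 and higher than in mESC 1FA by 2.60 points (exact permutation p = 0.1, the smallest for 3 against 3). The difference was 0.36 points without the ribosomal RNA gene bin (exact permutation p = 0.8) and 1.46 with copies kept (exact permutation p = 0.4). Rnu3a had only 4 bins, of which 3 were bins of mESC 1FA. Its trans share differed by −33.8 points from mESC over both conditions (exact permutation within condition, p = 0.0167, the smallest possible, adjusted p = 0.0444). The difference was −10.2 points in 1FA, where 1 mOPC library had 69.7% and the others 94.5% and 95.1%, and −57.3 points in NPM.

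Capture in mESC 2FA and mESC 1FA was not called different for either RNA. Between mESC 2FA and mESC 1FA the log2 fold change was −0.39 for Snord118 (SE 0.40, limma adjusted p = 0.739) and 0.09 for Rnu3a (SE 0.19, adjusted p = 0.879), where 0.0305% of 9837 transcripts were called, 0.0203% higher and 0.0102% lower. With replicate number as a block the adjusted p was 0.097 and 0.75. Snord118 was called lower when each pair of transcript and bin was counted once (−0.28, adjusted p = 0.0309). The trans share of Snord118 was 90.1% ± 0.419 in mESC 2FA, a difference of −2.08 points with the libraries apart (exact permutation p = 0.1, the smallest possible). That of Rnu3a was 96.1% ± 1.48 and differed by −0.50 points (exact permutation p = 0.8). The bin chr11:109000001-109025000 was again next to the ribosomal RNA gene bin, with 206 Snord118 interactions.

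The transcripts of genes that work with U8 and U3 were captured at their own levels, from lists of box C/D core and assembly factors, the Lsm ring that binds U8, the small subunit processome, large subunit processing, RNA polymerase I transcription and other RNAs of ribosomal RNA processing. In mESC NPM against 1FA, 19 of 35 transcripts of small subunit processome genes were called higher and 6 lower, where 24.8% of all transcripts were called higher and 28.4% lower. Their median log2 fold change was 0.76, against 0.03 over all transcripts. Utp3, a processome component, had 5.15 (SE 0.62, limma adjusted p = 0.000125). Of 12 box C/D factors 4 were called higher and 4 lower, and Nop56, a core protein of the class, had 1.73 (SE 0.26). Of 19 large subunit factors 8 were called higher and 3 lower. Of the Lsm ring 2 of 5 were called higher and 0 lower, and of RNA polymerase I factors 2 of 16 were called higher and 5 lower. Of 6 other RNAs of ribosomal RNA processing 4 were called higher and 0 lower, among them Snord22 (2.78, SE 0.46), Snord14e (2.06, SE 0.35) and Rmrp (1.93, SE 0.25). Snord118 was called lower in the same libraries, a direction that turned without own bins.

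In mOPC NPM against 1FA, 19 of 34 small subunit processome transcripts were called higher and 3 lower, where 32.3% of all transcripts were called higher and 23.8% lower. The counts were 8 of 18 large subunit factors higher and 0 lower, and 4 of 16 RNA polymerase I factors in each direction. Of box C/D factors 3 of 11 were called higher and 2 lower, of the Lsm ring 1 of 3 higher and 0 lower. Of 5 other RNAs 1 was called, Snord13, which was lower by log2 fold change −3.50 (SE 0.48, limma adjusted p = 0.00136).

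In mOPC 1FA against mESC 1FA, 42.9% of all transcripts were called lower and 35.1% higher. In the lists the counts were 0 higher and 7 lower of 10 box C/D factors, 0 and 3 of 4 in the Lsm ring, 3 and 17 of 32 in the small subunit processome, 1 and 9 of 17 large subunit factors, and 5 and 7 of 16 RNA polymerase I factors. Of 6 other RNAs 1 was higher and 3 lower, with Snord13 at −3.31 (SE 0.30) and Snord14e at −2.31 (SE 0.32). In NPM between the cell types, where 27.4% of all transcripts were called higher and 22.9% lower, they were 0 and 4 of 10, 0 and 2 of 4, 1 and 11 of 33, 0 and 5 of 18, and 1 and 3 of 16, and 0 and 4 of 5 other RNAs. Between mESC 2FA and 1FA 0 of 87 transcripts of these lists were called by limma, and 17 (19.5%) had an unadjusted p under 0.05, as did 11.6% of all 9837 transcripts. With replicate number as a block 10 of the 87 were called (11.5%), against 4.89% of all transcripts.

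In mESC ActD4 against mESC 1FA, the contrast that chose both members, 20 of 35 small subunit processome transcripts were called higher and 4 lower. Their median was 0.64, against −0.29 over all transcripts. The counts were 9 and 1 of 19 large subunit factors, 4 and 3 of 11 box C/D factors, 1 and 1 of 4 in the Lsm ring and 3 and 3 of 16 RNA polymerase I factors. Of 6 other RNAs 5 were called higher and 1 lower. Snord13 rose by 2.33 on the log2 scale (SE 0.22, limma adjusted p = 7.69e-05). Over all transcripts 21.4% were called higher and 40.6% lower.

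In mESC ActD4 against mESC 1FA, 21.4% of all tested transcripts were called higher. Of 14 genes within 100000 bases of Snord118, 5 passed the filter on low counts in this contrast, and these were called higher. A gene low in mESC 1FA, such as Vamp2 with 17 interactions over 3 libraries, passes the filter only through mESC ActD4, so nothing is read from that number. They were the clock gene Per1 (log2 fold change 2.71, SE 0.32, limma adjusted p = 0.000247), the vesicle protein gene Vamp2 (2.37), the mitotic kinase gene Aurkb (2.13), Ctc1 of the telomere CST complex (1.50) and the purine synthesis gene Pfas (0.61). Tmem107, a gene of the ciliary transition zone that ends 134 bases before Snord118 on the same strand, was listed at 0 in all groups and was not tested. Hes7, a transcription factor gene of somite formation, did not pass, with 7 interactions in mESC 1FA and a listing at 0 in mESC ActD4. Near Rnu3a, Gtf3c6, a subunit gene of transcription factor IIIC on the opposite strand, starts 359 bases from Rnu3a and had 36 interactions in mESC 1FA and was listed at 0 in mESC ActD4, against which no test is given. Amd1, of polyamine synthesis, was lower by log2 fold change −0.84 (adjusted p = 0.00873). Rpf2, a ribosome assembly factor, had −0.34 (adjusted p = 0.262) and the kinase gene Cdk19 −0.11 (adjusted p = 0.433).

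The transcripts whose capture was most like that of each member over the 15 libraries were mostly other small nucleolar RNAs for Snord118. By Pearson's r of log2 CPM among 10215 transcripts they were Snord47 (0.98), Snora24 (0.97), Snord83b (0.97), Snord2 (0.96) and Gm24411 (0.96). For Rnu3a they were Snord13 (0.94), 2410002F23Rik (0.93), Rbm27 (0.93), Farsa (0.93) and Prpf31 (0.93). Between both members r was 0.79, and Rnu3a ranked 452 among the transcripts most like Snord118. These correlations are descriptions, as the libraries fall into groups. In mOPC NPM, Snord118 had no listed interactions, and its mean log2 CPM of −1.66 there was also that of Snord47, Snora24 and Gm24411. How far this shared lowest value raised r was not tested. From mESC 1FA to mESC ActD4 the RNAs named for Snord118 rose less than Snord118 itself (10.5 to 14.3), and Gm24411 rose least (4.88 to 5.28).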

How the data were processed

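RADICL-seq was read from the lists of significant RNA–DNA interactions of 15 libraries, which the 32 samples stand for. Per the paper's methods, the authors discarded ribosomal RNA tags and PCR copies. They aligned both tags of a read to mm10 with BWA 0.7.15-r1140 and kept unique alignments. RNA tags were assigned to GENCODE genes by strand and DNA tags to 25-kb bins, and pairs past a one-sided binomial test were kept. Contacts in regions blacklisted for mm10 were then left out. Whether replicates were pooled for the binomial test is not given in the methods and was read from the lists. The deposited values used have no count unit: a line in 32 columns is 1 interaction, with tag positions and gene names. The columns of the authors' own p-values and adjusted p-values were not used.

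Lines were reduced to distinct interactions and counted per transcript and library. Transcripts with a count of at least 10 (scaled to the median library) in as many libraries as the smaller group, and at least 15 in all, were scaled by TMM, expressed as log2 CPM (prior count 0.5) and tested with limma 3.58.1 (R 4.3.3), two-sided, with Benjamini-Hochberg adjustment over all transcripts and calls at 0.05. Shares were compared by exact permutation of libraries. The p-values measure the spread between passage batches within 1 shared list of pairs, which understates that spread. Trans means that both tags lie on different chromosomes. Positions were written 1-based, sequences are from the mm10 genome, and Python 3.11.15 was used. Of 17542 Ensembl identifiers 17501 were matched to GENCODE M21. On simulated counts of the 6 fits, 33% to 96% of changes of 1 on the log2 scale and 90% to 100% of changes of 2 were recovered.

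The members, gene lists and tests were chosen with earlier results of these data known. Other genes are named by a rule: the 5 transcripts most like each member, neighbours within 100000 bases, genes in the 10 leading bins of a group, the 5 leading RNAs of the ribosomal RNA gene bin, and at most 3 called genes per list and comparison with the largest change. Replicate numbers pair mESC 1FA with mESC 2FA, since the deviations of same-numbered libraries correlated at 0.355, 0.183 and 0.323. They pair no other groups. The alternatives were other scalings, filters and prior counts, copies kept (for capture, a setting added later), pairs counted once, bins left out, 1 fit over all libraries, the replicate block and each replicate left out.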

Additional observations from a re-analysis of the deposited data

How the results depend on the processing

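Of 122 alternative values for 8 tests of capture, 99 kept direction and side of the threshold, as did 35 of 42 for 3 tests of shares. The other 5 tests of shares cannot pass 0.05 by design, and the 2 changes with actinomycin D were described without a test. For Snord118 against mOPC NPM, listed at 0, neither a fold nor its alternatives are given. For mESC 2FA against 1FA, Snord118 passed with each transcript-bin pair counted once (−0.28, adjusted p = 0.0309) and turned to 0.17 without mESC 2FA replicate 1. Rnu3a turned to −0.083 without the ribosomal RNA gene bin, −0.023 with pairs counted once, −0.14 when replicate 3 of mESC 1FA was left out and −0.021 when replicate 2 of mESC 2FA was. For mESC NPM against 1FA, Snord118 turned to 0.40 without own bins. Rnu3a passed by total scaling (1.57, adjusted p = 0.0254), without the ribosomal RNA gene bin (2.25), without own bins (4.28), with pairs counted once (2.88, adjusted p = 1.33e-06), with copies kept (1.75) and without NPM replicate 2 (2.06), and was −0.22 without NPM replicate 1. For mOPC NPM against 1FA, Rnu3a lost the call by total scaling (−0.26) and in 1 fit over 15 libraries (−1.18, adjusted p = 0.0549) and turned without the ribosomal RNA gene bin (1.06) or own bins (1.15) and with copies kept (0.47). It gave no value with pairs counted once, where it failed the filter. For actinomycin D the described change was 4.58 for Snord118 without own bins, and for Rnu3a 4.32 without the ribosomal RNA gene bin, 3.77 without own bins and 4.47 with pairs counted once. The causes were not tested. Leaving out own bins removed 90.7% to 92.9% of the interactions of the NPM libraries, and the scaling then rested on the remainder.

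With 1 library left out the log2 change ran from −0.80 to 0.17 (Snord118) and −0.14 to 0.26 (Rnu3a) for 2FA, −4.78 to −1.72 and −0.22 to 2.06 for mESC NPM, and −1.23 to −0.82 for Rnu3a in mOPC NPM. Between the NPM groups it ran from −4.82 to −2.50 for Rnu3a, where a lone library left was assumed to vary like the other group. The Rnu3a trans share difference ran from −36.6 to −29.6 points between the cell types (exact permutation p up to 0.0833) and from −1.09 to 0.33 points for 2FA. Of trans interactions alone, the NPM difference in the Rnu3a bin share was −10.2 points.

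With replicate number as a block, Rnu3a differed by −43.4 points (NPM, trans share), −29.0 (cell types) and −48.3 (NPM, bin share), at exact permutation p = 0.125, 0.0625 and 0.125, of which 0.125 is the smallest that the pairs allow. The block raised the calls for 2FA from 3 to 481 and left Snord118 (−0.39) uncalled. It ended or added no other call of either RNA.

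Scaling by total moved the median log2 change of all transcripts from 0.034 to 0.696 in mESC NPM, from 0.338 to 1.12 in mOPC NPM, from −0.201 to −0.703 between the cell types in 1FA and from 0.098 to −0.312 in NPM. The higher share of calls went from 46.6% to 81.3%, 57.7% to 90.7%, 45% to 32.4% and 54.5% to 38.9%. The files leave out pairs below the authors' threshold, so the lowest levels, above all in mESC ActD4 and NPM, cannot be resolved.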
